A study of Homo sapiens with 9 samples.

Results

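The phagocyte NADPH oxidase was followed through 7 genes of a count table, chosen by symbol: CYBA, CYBB, NCF1, NCF4, RAC2 and the NCF1 copies NCF1B and NCF1C. Each was taken from its row on the main chromosomes. These are 7 of 67927 genes with values, and all 7 were among the 17568 genes with enough counts to test. The cells were THP-1, an established human line from an acute monocytic leukaemia. They were grown in suspension and kept for 48 h with the solvent of lupeol (control), with lupeol at 50 µmol/L (lupeol 50) or with lupeol at 80 µmol/L (lupeol 80). Lupeol is a triterpene made by plants. Each group had 3 RNA-seq libraries. The labels do not say whether these were separate cultures, and the p-values cover only the spread between libraries, which may be technical.

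The phagocyte oxidase moves electrons from NADPH across a membrane to oxygen and so makes superoxide, which neutrophils and monocytes use against engulfed microbes. Its membrane part is a flavocytochrome of gp91phox, encoded by CYBB, and p22phox, encoded by CYBA. At rest the cytosol holds a separate complex that includes p47phox (NCF1) and p40phox (NCF4), and on activation this complex and the small GTPase RAC2 join the flavocytochrome. Inherited loss of a core subunit is known to cause chronic granulomatous disease. NCF1 has near-identical pseudogene copies on chromosome 7, NCF1B and NCF1C, whose typical form lacks a GT pair at the start of exon 2.

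The 3 copies are shown at that place because their likeness limits every NCF1 value that follows. The stretches come from GENCODE release 29 transcripts on GRCh38 and run from exon 1 into exon 2, with the intron spliced out. They span chr7:74774082-74777292 on the plus strand for NCF1, chr7:73220696-73223901 on the plus strand for NCF1B and chr7:75168687-75171893 on the minus strand for NCF1C. Capitals mark the GT repeat.
NCF1: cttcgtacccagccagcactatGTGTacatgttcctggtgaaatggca
NCF1B: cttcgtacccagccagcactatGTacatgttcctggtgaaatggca
NCF1C: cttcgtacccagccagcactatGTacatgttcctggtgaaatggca
The NCF1 stretch holds GTGT and the stretches of both copies hold a single GT. Of the 3 annotated NCF1B transcripts, 2 hold the single GT and 1 holds GTGT. Transcripts of NCF1 and NCF1C were identical at 99.43% of 1394 aligned bases, and those of NCF1 and NCF1B at 99.71% of 1051. Of all windows of 100 bases in the NCF1 transcript, 64.53% also occurred in another copy, and of windows of 150 bases, 45.39%. A read from such a window cannot be placed in 1 copy, and the sources used here do not say how such reads were counted. The 3 rows are therefore uncertain as separate genes, and their sum is given beside them.

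The libraries held between 26134744 and 38430299 counts, with lupeol 80 replicate 1 the deepest. Of 10 genes chosen as markers of the monocytic line, 9 had a mean of at least 1 CPM (counts relative to the library total, scaled by edgeR's TMM factors) in every group, and CD68 did not. Their summed level ran from 1321 to 1416 CPM in control, 1234 to 1278 at lupeol 50 and 1134 to 1227 at lupeol 80. Markers of T cells, erythroid cells, megakaryocytes, epithelium and fibroblasts each summed to at most 1.72 CPM in any library. The 4 B cell markers summed to between 44.5 and 52.1 CPM in control, 41.6 and 60.9 at lupeol 50 and 19.6 and 36.0 at lupeol 80, nearly all from PAX5, with MS4A1 at 0 in every library. The part of these markers in the results was not tested. In bulk RNA, fewer cells of a type and less RNA per cell cannot be told apart. Libraries of a group were not alike: their root mean square log2 distance from the mean of the other 2 was between 0.466 and 0.566, with lupeol 50 replicate 1 the farthest. Leaving that library out moved edgeR's calls over all genes at lupeol 50 from 0 to 427, with 0 oxidase genes among them. An earlier account of these data described control B and lupeol 80 replicate 1 as apart from their groups, so results were also computed without them. By the distance used here control B stood at 0.545, with controls 1 and A at 0.475 and 0.470. Lupeol 80 replicate 1 stood at 0.549, with replicates 2 and 3 at 0.510 and 0.546.

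At 80 µmol/L the NCF1 rows were the oxidase genes with the largest differences, and CYBB was the only one of the 7 above control. NCF1B fell, from 22.8 ± 4.61 to 11.0 ± 3.34 CPM (SD, n = 3). This pseudogene copy was the only row of the 7 called by edgeR's quasi-likelihood test at an adjusted p under 0.05. Of the 5 genes other than NCF1B and NCF1C, 0 were called. Over all tested genes, 1.14% were called in this comparison and 0.854% were called and lower. In 6 of the 7 rows every lupeol 80 library lay below every control library, as it did for 12.9% of all tested genes. Because the NCF1 rows can share reads, the count without the 2 pseudogene rows is 4 of 5 genes. At 50 µmol/L no oxidase gene was called by edgeR or by DESeq2, against 0% of all tested genes in edgeR and 1.58% of those with an adjusted p in DESeq2, and CYBA alone had an unadjusted p under 0.05 (6.02% of all tested genes had one and were lower). The groups overlapped in all 7 rows there, while they did not overlap for 19.2% of all tested genes. Both doses were set against the same control libraries.

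**Figure D1:**
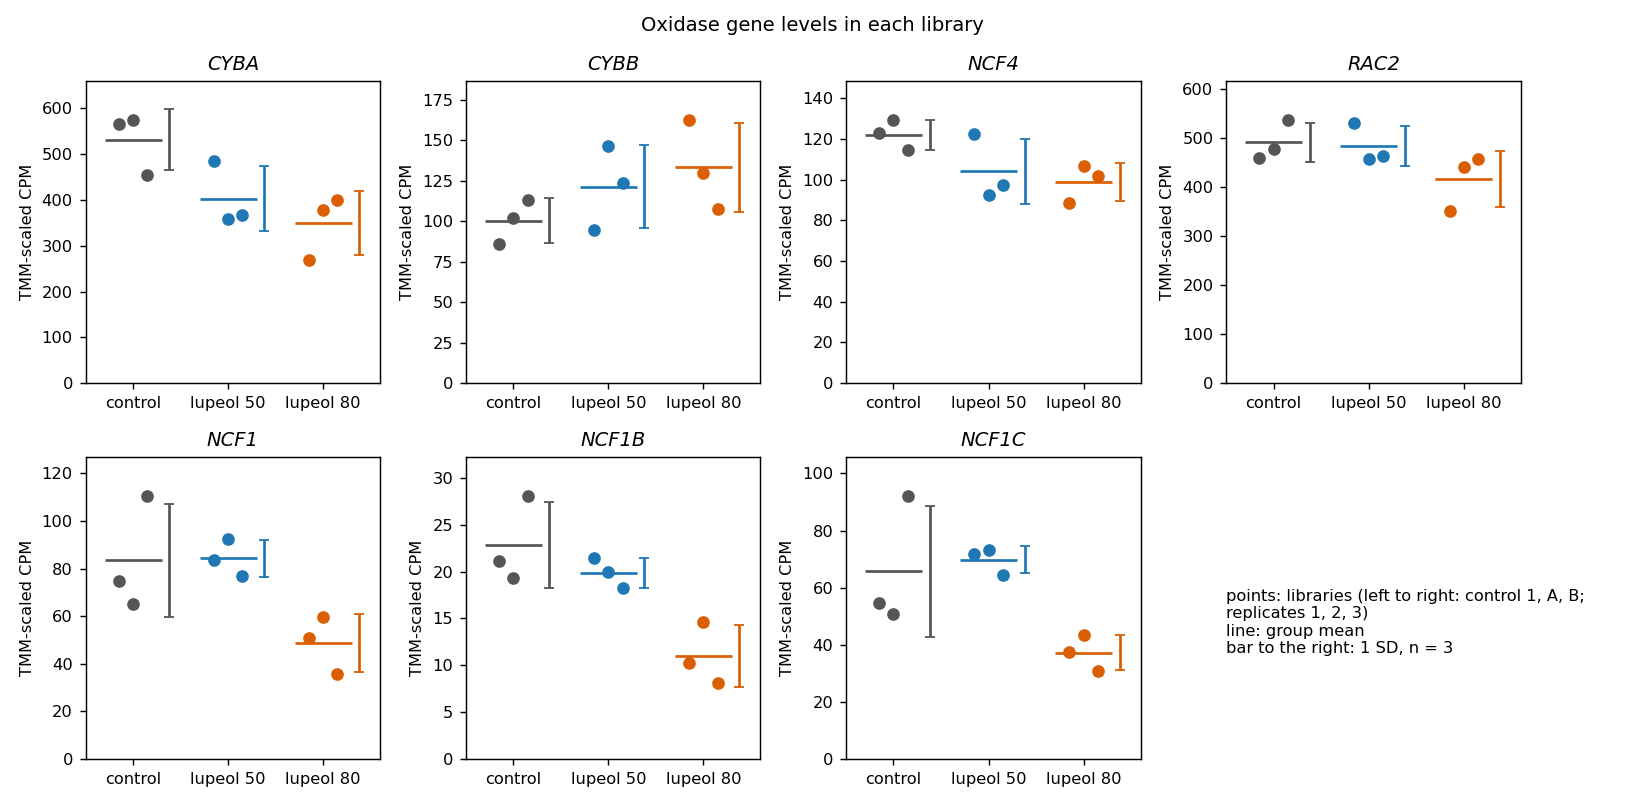
TMM-scaled CPM of the 7 oxidase genes (vertical axes, each from 0) in the libraries of the 3 groups (horizontal axes). Points are libraries, lines are group means and bars are 1 SD with n = 3. The lupeol 80 points lie below all control points in every panel but that of CYBB.

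CYBA encodes p22phox, the smaller chain of the flavocytochrome and the docking partner of p47phox. It lies at chr16:88643289-88651054 on the minus strand (GRCh38). It had 565, 573 and 454 CPM in controls 1, A and B. At lupeol 50 it had 484, 357 and 367 CPM in replicates 1 to 3, and at lupeol 80 it had 269, 378 and 400. Lupeol 50 replicate 1 lay within the control range, and all lupeol 80 libraries lay below it, with replicate 1 the lowest. The log2 fold change was -0.61 ± 0.16 (SE) at lupeol 80, with an adjusted p of 0.064. At lupeol 50 it was -0.40 ± 0.16 with an adjusted p of 0.33. Without control B and lupeol 80 replicate 1, both contrasts were called, at -0.55 (adjusted p = 0.039) for lupeol 80 and -0.51 (adjusted p = 0.033) for lupeol 50. In that setting edgeR's calls over all tested genes also rose, from 201 to 860 at lupeol 80 and from 0 to 913 at lupeol 50. DESeq2 called CYBA at lupeol 80, with an adjusted p of 0.014, in a comparison where it called 6.58% of all genes.

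CYBB encodes gp91phox, the chain that holds the NADPH and FAD sites and carries the electrons. It lies at chrX:37780059-37813461 on the plus strand. It had 85.7, 102 and 113 CPM in controls 1, A and B. At lupeol 50 it had 94.6, 146 and 123 CPM, and at lupeol 80 it had 162, 130 and 108. Lupeol 80 replicate 3 lay within the control range and replicate 1 was the highest of all 9 libraries. The log2 fold change was 0.41 ± 0.17 at lupeol 80 (adjusted p = 0.20) and 0.28 ± 0.17 at lupeol 50 (adjusted p = 0.54). Without lupeol 80 replicate 1 the first of these was 0.24. The value at lupeol 50 was 0.12 without lupeol 50 replicate 2, 0.43 without replicate 1 and 0.17 without control 1. An annotated protein-coding gene, ENSG00000250349, overlaps CYBB on the same strand and had 0 counts in every library.

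The 2 chains of the flavocytochrome thus had differences of opposite sign. Their ratio, CYBA over CYBB in CPM per kilobase of the deposited gene length, was looked at after these values were seen. It was 8.86, 7.57 and 5.41 in controls 1, A and B, and 6.88, 3.29 and 4.01 at lupeol 50. At lupeol 80 it was 2.23, 3.92 and 4.99, all below the lowest control. The ratio was compared on the log2 scale. A two-sided exact permutation test gave p = 0.1 for lupeol 80 against control, the smallest value that 3 against 3 libraries can give. The same exact test gave p = 0.2 for lupeol 50 against control and p = 0.5 between the doses.

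NCF1 encodes p47phox, the organiser whose phosphorylation starts assembly. It lies at chr7:74774011-74789315 on the plus strand. It had 74.9, 65.3 and 110 CPM in controls 1, A and B, and 83.5, 92.3 and 76.9 at lupeol 50. At lupeol 80 it had 50.8, 59.5 and 35.5 CPM, below every library of both other groups. Its log2 fold change was -0.78 ± 0.21 at lupeol 80 against control (adjusted p = 0.081) and 0.01 ± 0.20 at lupeol 50 (adjusted p = 0.99). Between the doses it was -0.79 ± 0.21 (adjusted p = 0.12). Without control B the differences from control were -0.52 at lupeol 80 and 0.27 at lupeol 50.

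NCF1C, at chr7:75156639-75172044 on the minus strand, had 54.5, 50.6 and 92.0 CPM in controls 1, A and B. It had 71.9, 73.2 and 64.4 CPM at lupeol 50 and 37.5, 43.4 and 30.9 at lupeol 80. As for NCF1, control B was the highest library and lupeol 80 replicate 3 the lowest. The log2 fold change was -0.82 ± 0.20 at lupeol 80 (adjusted p = 0.061) and 0.09 ± 0.20 at lupeol 50 (adjusted p = 0.90). Without control B these were -0.49 and 0.42.

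NCF1B, at chr7:73220624-73235945 on the plus strand, had the lowest level of the 3 copies. It had 21.1, 19.3 and 28.1 CPM in controls 1, A and B and 21.4, 19.9 and 18.3 at lupeol 50. At lupeol 80 it had 10.3, 14.6 and 8.06 CPM, below all other libraries. Its log2 fold change was -1.05 ± 0.20 at lupeol 80 (adjusted p = 0.023) and -0.20 ± 0.19 at lupeol 50 (adjusted p = 0.72), the latter -0.02 without control B. The call rested on most of the libraries: the adjusted p was 0.12 without control 1, 0.098 without control A and 0.056 without control B. It was 0.061 without lupeol 80 replicate 1, 0.089 without replicate 3, and 0.057 without control B and lupeol 80 replicate 1 together. The log2 fold change stayed between -1.31 and -0.83 over all 17 alternatives, of which 11 called it.

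Summed to 1 row, the 3 copies had 151, 135 and 231 CPM in controls 1, A and B. They had 177, 185 and 160 CPM at lupeol 50 and 98.6, 117 and 74.5 at lupeol 80. Control B was the highest of all libraries and the 3 lupeol 80 libraries were the lowest. The sum does not depend on how counted reads were divided among the copies. It can still depend on whether reads that align more than once were dropped or counted at each copy, which is not stated. Its log2 fold change was -0.83 ± 0.20 at lupeol 80 against control (adjusted p = 0.062), 0.02 ± 0.20 at lupeol 50 (adjusted p = 0.99) and -0.84 ± 0.20 between the doses (adjusted p = 0.096). Without control B the difference at lupeol 80 was -0.55 (adjusted p = 0.085). DESeq2 called the sum at lupeol 80 against control, at -0.83 with an adjusted p of 0.0022.

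**Figure D2:**
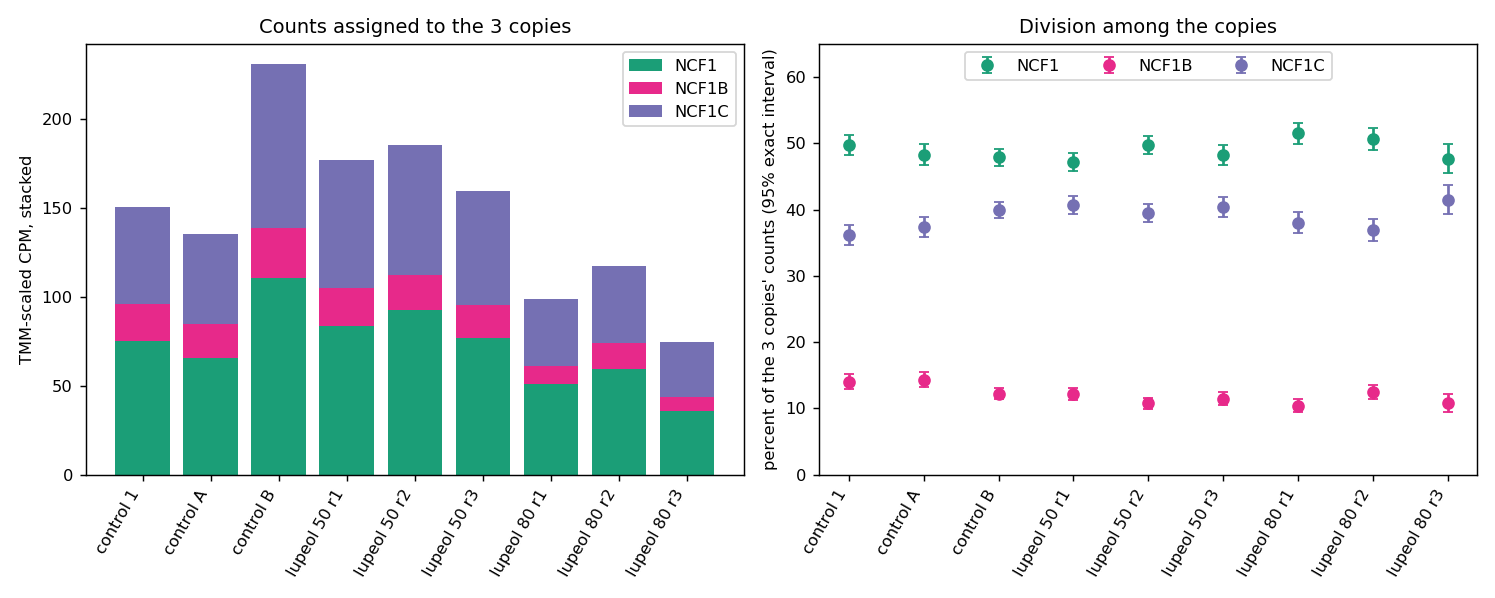
Counts assigned to NCF1, NCF1B and NCF1C in each of the 9 libraries, as stacked TMM-scaled CPM (left) and as percent of the 3 copies' counts with 95% exact binomial intervals (right). The stacks run from 74.5 CPM in lupeol 80 replicate 3 to 231 in control B, while NCF1B holds between 10.4% and 14.3% throughout.

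The division of counts among the copies varied little. NCF1 held 48.6% ± 0.98 of the 3 copies' counts in control, 48.4% ± 1.29 at lupeol 50 and 50.0% ± 2.03 at lupeol 80 (SD, n = 3). NCF1B held 13.5% ± 1.16, 11.4% ± 0.68 and 11.2% ± 1.07, and NCF1C held the rest. The lowest NCF1B share was 10.4% in lupeol 80 replicate 1 (Clopper-Pearson 95% interval 9.48% to 11.4%) and the highest 14.3% in control A (13.2% to 15.4%). These intervals cover counting error only. Of 9 comparisons of shares by two-sided exact permutation tests, the smallest p was 0.1, for NCF1B at lupeol 50 against control, where the groups did not overlap, and no p could be smaller with 3 against 3 libraries. Adjustment over the 9 comparisons can only raise it.

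NCF4 encodes p40phox, which binds phosphatidylinositol 3-phosphate on phagosomes. It lies at chr22:36860988-36878017 on the plus strand. It had 123, 129 and 114 CPM in controls 1, A and B. It had 122, 92.4 and 97.4 CPM at lupeol 50 and 88.5, 107 and 102 at lupeol 80. The lupeol 80 libraries lay below the controls, and lupeol 50 replicate 1 lay among the controls. The log2 fold change was -0.30 ± 0.12 at lupeol 80 (adjusted p = 0.19) and -0.23 ± 0.12 at lupeol 50 (adjusted p = 0.46), the latter -0.36 without lupeol 50 replicate 1 and -0.15 without replicate 2. An antisense gene, NCF4-AS1, overlaps NCF4 and had between 1 and 17 counts per library, at most 0.533% of the NCF4 count.

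RAC2 encodes the small GTPase of blood cells that activates the oxidase once loaded with GTP. It lies at chr22:37225270-37244448 on the minus strand. It had 458, 478 and 535 CPM in controls 1, A and B, and 531, 456 and 462 at lupeol 50. At lupeol 80 it had 351, 440 and 458 CPM. Lupeol 80 replicate 3 and control 1 nearly met, at 457.8 and 458.0 CPM, so the gap between these groups was small. The log2 fold change was -0.24 ± 0.12 at lupeol 80 (adjusted p = 0.30) and -0.02 ± 0.12 at lupeol 50 (adjusted p = 0.97). Without control B and lupeol 80 replicate 1 the difference at lupeol 80 was -0.06.

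**Figure D3:**
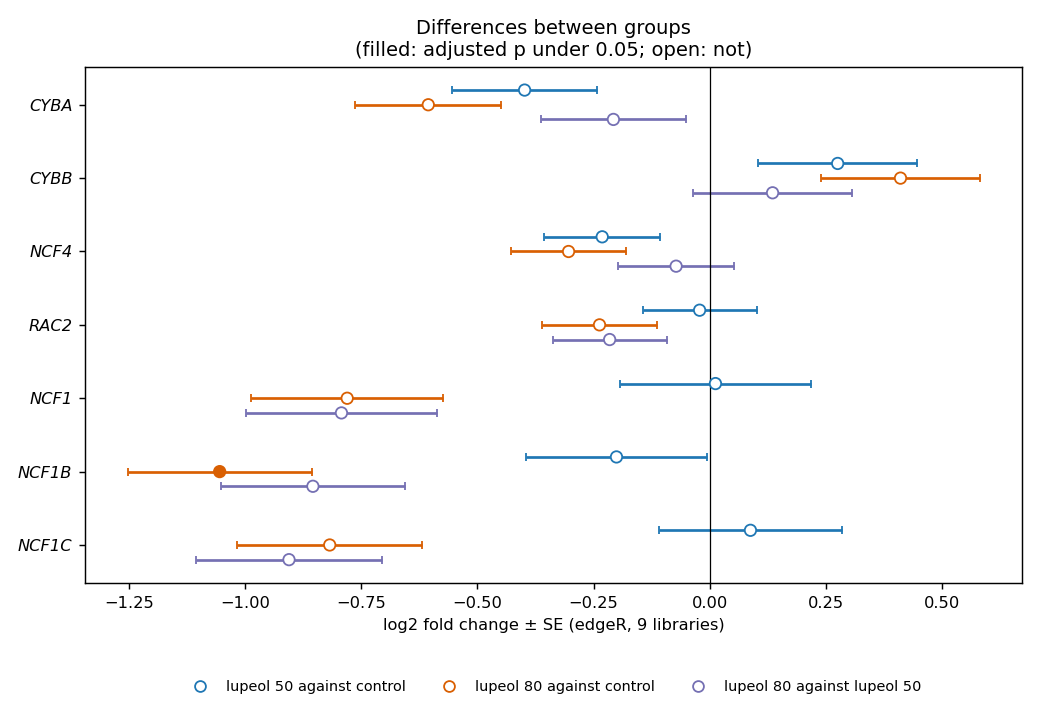
Log2 fold changes with SE (horizontal axis) of the 7 oxidase genes in 3 comparisons, from 1 edgeR fit of 9 libraries, with a filled point for an adjusted p under 0.05. The only filled point is NCF1B at lupeol 80 against control, at -1.05, and the lupeol 50 points of NCF1, NCF1C and RAC2 lie near 0.

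Set against each other, the doses differed most in the NCF1 rows. In these 3 of the 7 rows every lupeol 80 library lay below every lupeol 50 library, as it did for 9.63% of all tested genes. No oxidase gene was called between the doses, where 0.0455% of all tested genes were called by edgeR. NCF1B stood at -0.85 ± 0.20 and NCF1C at -0.91 ± 0.20, both with an adjusted p of 0.081. In this comparison DESeq2 called the 3 NCF1 rows, which can share reads, and 2.96% of all genes. CYBA, CYBB and NCF4 lay between -0.21 and 0.14, with adjusted p-values from 0.55 to 0.82, and RAC2 at -0.22 ± 0.12 (adjusted p = 0.42). In the edgeR test of any difference among the 3 groups, 0 of the 7 genes and 0.233% of all tested genes were called. The smallest adjusted p among the 7 there was 0.053, for NCF1B, and 4 of the 7 were called by DESeq2, which called 7.82% of all genes. An unadjusted p under 0.05 was reached there by 4 of the 7 genes, CYBA and the 3 NCF1 rows, and by 19.9% of all tested genes. At lupeol 80 against control it was reached by 5 of the 7 genes as lower (10.7% of all tested genes) and by CYBB as higher (8.84%). Without the 2 pseudogene rows, 3 of 5 genes reached it as lower. Between the doses the 3 NCF1 rows reached it as lower (8.18%).

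Per kilobase of deposited length, RAC2 and CYBA were far above the other subunits in each group. In control RAC2 had 194 ± 15.9 CPM per kilobase and CYBA 163 ± 20.4 (SD, n = 3). NCF4 followed at 54.5 ± 3.29, NCF1C at 46.1 ± 16.0, NCF1 at 24.5 ± 6.96, CYBB at 22.9 ± 3.14 and NCF1B at 12.0 ± 2.42. Of neighbours in this order, the ranges of NCF4 and NCF1C overlapped, as did those of NCF1 and CYBB. The order of the copies rests on deposited lengths of 3413 bases for NCF1, 1902 for NCF1B and 1427 for NCF1C. The transcripts compared were nearly identical where they aligned, over 1394 bases for NCF1 and NCF1C and 1051 for NCF1 and NCF1B. At lupeol 80 CYBB had 30.4 ± 6.26 CPM per kilobase and stood next after NCF4, above NCF1C at 26.1 ± 4.35 and NCF1 at 14.2 ± 3.55. The ranges of CYBB and NCF1C overlapped there, while those of CYBB and NCF1 did not. At lupeol 50 CYBB, at 27.7 ± 5.91, and NCF1, at 24.7 ± 2.26, overlapped.

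**Figure D4:**
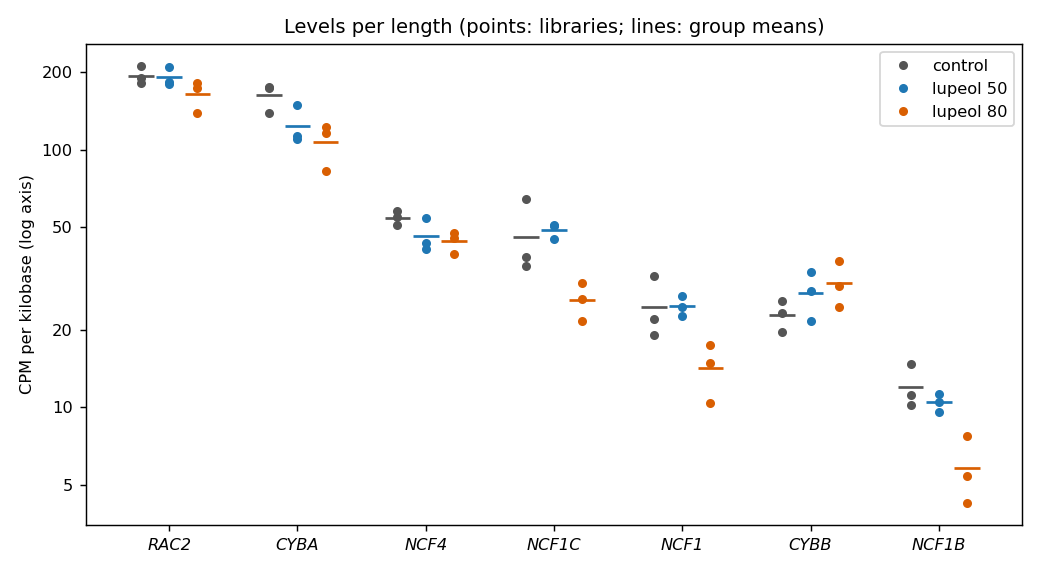
CPM per kilobase of deposited gene length (vertical log axis) of the 7 oxidase genes in the order of the control means, with a point per library and a line per group mean. RAC2 and CYBA stand above 80 in every library, and at lupeol 80 the CYBB points lie above the NCF1 points.

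The genes whose libraries followed each subunit most closely were found by the root mean square difference of log2 CPM over the 9 libraries, each gene centred on its own mean, among 10771 genes. For CYBA these were SNRNP70, a component of the U1 spliceosome (0.075), the peptidase gene DPP7 (0.078) and ATP5IF1, the inhibitor of the mitochondrial ATP synthase (0.082). For CYBB they were SYNJ1 (0.088), SGTB (0.101) and ZFYVE16 (0.104). For NCF1 they were GPR132 (0.113), EBI3 (0.116) and SH3PXD2B (0.145), while NCF1C lay nearer, at 0.097. HIGD2A, ARID3A and GTF3C5 were nearest to NCF4, and ATP5MC3, SNRPF and NDUFA6 to RAC2, all at 0.051 or less. Between members the distance was 0.143 for NCF4 and RAC2, 0.165 for CYBA and NCF4, and 0.595 for CYBA and CYBB. The 9 libraries include the groups' differences and share their depth, so these are descriptions.

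Of the genes around the oxidase, 8 lists with 104 entries were described, with the same test. Among 15 transcription factors known to act on oxidase genes, 1 was called at lupeol 80, where 1.14% of all tested genes were called. This was CEBPA, a factor of myeloid differentiation. It had 349, 332 and 268 CPM in controls 1, A and B, 298, 199 and 220 at lupeol 50, and 160, 203 and 182 at lupeol 80. It fell at lupeol 80, with all 3 libraries below the controls and a log2 fold change of -0.80 ± 0.15 (adjusted p = 0.023). Its adjusted p was 0.15 without control 1, 0.13 without control A, 0.071 without lupeol 80 replicate 1 and 0.090 without replicate 3. In this list 13 of 15 genes had a log2 fold change below 0 at lupeol 80, against 48.9% of all tested genes, and the median was -0.26 against 0.01 over all tested genes. At an unadjusted p under 0.05, edgeR gave 4 lower and 1 higher of the 15 there, against 10.7% and 8.84% of all tested genes. The list was not tested as a set. SPI1, the gene of PU.1, stood at -0.32 (adjusted p = 0.17), and IRF8, the most abundant of the list, at -0.11 (adjusted p = 0.66).

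**Figure D5:**
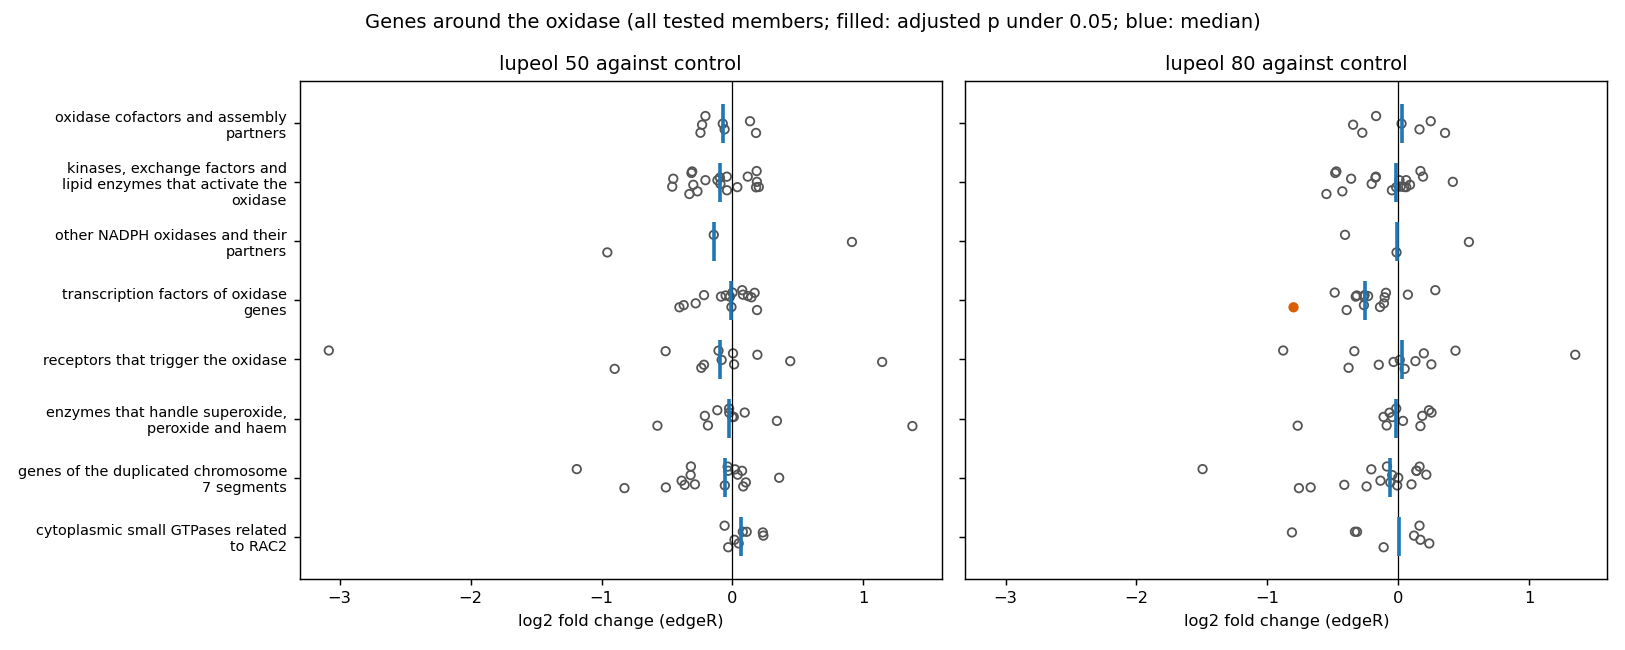
Log2 fold changes (horizontal axes) of all tested genes in 8 lists around the oxidase, at lupeol 50 (left) and lupeol 80 (right) against control, with a point per gene and a blue line at each median. The only filled point, an adjusted p under 0.05, is CEBPA at lupeol 80, and the transcription factor list has the lowest median there, at -0.26.

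PU.1 is known to bind sites with the core GAGGAA. RefSeq promoters (GRCh38.p14, 250 bases before to 50 after the start) were given for CYBA, CYBB and NCF1, and were searched for GAGGAA on both strands. The promoters of CYBB and NCF1 each held it once, on the opposite strand as TTCCTC, and that of CYBA did not hold these letters. Of 35116 promoters of this length, 27.85% held the motif. The CYBB and NCF1 promoters are shown because both hold it, and capitals mark the motif. Their transcripts had differences of opposite sign at lupeol 80, but edgeR called neither, and the part of PU.1 was not tested. The promoters are chrX:37779809-37780108 and chr7:74773761-74774060, both on the plus strand.
CYBB: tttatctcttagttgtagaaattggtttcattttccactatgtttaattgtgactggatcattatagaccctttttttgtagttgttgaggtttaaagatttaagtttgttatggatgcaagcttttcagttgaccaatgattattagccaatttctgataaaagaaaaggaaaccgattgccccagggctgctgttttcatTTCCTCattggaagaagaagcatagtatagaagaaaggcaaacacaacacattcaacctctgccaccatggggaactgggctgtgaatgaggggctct
NCF1: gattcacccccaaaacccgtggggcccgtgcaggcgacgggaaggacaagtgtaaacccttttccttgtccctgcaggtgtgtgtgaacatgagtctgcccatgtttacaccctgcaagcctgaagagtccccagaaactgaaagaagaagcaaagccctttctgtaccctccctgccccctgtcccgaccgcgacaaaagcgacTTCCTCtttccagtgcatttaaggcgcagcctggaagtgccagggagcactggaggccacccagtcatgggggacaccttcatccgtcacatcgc
A match is a description of the letters and not evidence of binding.

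Among 7 cofactors and assembly partners, none was called at either dose by edgeR, DESeq2 or limma-voom. At an unadjusted p under 0.05, edgeR gave 1 higher and 1 lower of the 7 at lupeol 80, against 8.84% and 10.7% of all tested genes. At lupeol 50 it gave 0, where 6.02% of all tested genes reached it as lower. The most abundant of this list were ARHGDIB, a binding partner that keeps small GTPases such as RAC2 in the cytosol, at 0.02 ± 0.11, and RAC1, the widely expressed relative of RAC2, at 0.16 ± 0.11, both at lupeol 80 against control. In the list of 8 small GTPases related to RAC2 none was called at either dose by any of the 3 tools. An unadjusted p under 0.05 in edgeR was reached by 1 as higher at lupeol 80, against 8.84% of all tested genes. RHOA, which controls actin, stood at 0.24 ± 0.11 there (adjusted p = 0.23).

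Of 19 tested kinases, exchange factors and lipid enzymes that activate the oxidase, edgeR and limma-voom called none at either dose, and the median at lupeol 80 was -0.02. At an unadjusted p under 0.05, edgeR gave 1 higher and 4 lower of the 19 at lupeol 80, against 8.84% and 10.7% of all tested genes, and 6 lower at lupeol 50, against 6.02%. DESeq2 called 4 of this list at lupeol 80, where it called 6.58% of all genes: PAK2 as higher, and as lower PIK3CD, a catalytic PI3-kinase subunit, PRKCD, a protein kinase C, and VAV1, an exchange factor for RAC. PAK2, a kinase bound by active RAC, had 284 ± 14.4 CPM in control and 379 ± 31.6 at lupeol 80 (log2 fold change 0.42 ± 0.11, adjusted p = 0.061). SYK, a kinase below Fc receptors and integrins, stood at 0.01 ± 0.11. None of 12 receptors that trigger the oxidase was called by edgeR. It gave 2 higher and 1 lower at an unadjusted p under 0.05 at lupeol 80, against 8.84% and 10.7% of all tested genes. DESeq2 called ITGB2 as lower there, in a comparison where it called 6.58% of all genes. ITGB2, the beta chain of the CR3 integrin, stood at -0.38 ± 0.11 (adjusted p = 0.086) and the Fc receptor gene FCGR1A at 0.13 ± 0.21 (adjusted p = 0.77). Of 11 tested enzymes that handle superoxide, peroxide and haem none was called at either dose by any of the tools. An unadjusted p under 0.05 in edgeR was reached by 1 as higher and 1 as lower at lupeol 80, against 8.84% and 10.7%. GPX1, a glutathione peroxidase, and CAT, catalase, stood there at -0.02 ± 0.14 and 0.18 ± 0.13.

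Other NADPH oxidases were scarce. Of 10 genes of this list 3 could be tested, and NOX3, NOX4, DUOXA1 and DUOXA2 had 0 counts in every library. NOXA1, an activator of NOX1, had 6.43 ± 1.92 CPM in control, 3.31 ± 0.27 at lupeol 50 and 6.37 ± 1.71 at lupeol 80 (SD, n = 3). Its adjusted p at lupeol 50 was 0.20 in edgeR. DESeq2 called NOXA1 as lower there, in a comparison where it called 1.58% of all genes. NOX1 had at most 1.38 CPM in any library. Among 17 tested genes of the duplicated segments of chromosome 7 that hold the NCF1 copies, edgeR called none at either dose and the median at lupeol 80 was -0.06. At an unadjusted p under 0.05 it gave 2 lower at lupeol 80 and 1 at lupeol 50, against 10.7% and 6.02% of all tested genes. DESeq2 called STAG3L2 as lower at lupeol 80, where it called 6.58% of all genes. POM121C and POM121, the most abundant of them, stood at -0.06 ± 0.11 and -0.24 ± 0.14, and as duplicated genes they are uncertain in the same way as the NCF1 rows.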

How the data were processed

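Total RNA of THP-1 cells was sequenced in 9 libraries, and the authors deposited their raw counts, 1 row per gene, with a gene length in bases. The submitters' processing notes name Bowtie 0.12.2 and the mouse build mm8, whereas all 35993 versioned gene IDs shared with GENCODE release 29 have the same human coordinates there, on GRCh38. How reads were counted (the tool, strand, and reads that align more than once) is not stated in the sources used here. The table has 67928 genes, of which 1 with empty values was left out. Of the control columns 2 share a heading, so these libraries are named A and B. Library totals were 26134744 to 38430299 counts.

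The counts went into edgeR 4.0.16 (R 4.3.3) with filterByExpr, which kept 17568 genes, TMM scaling and the robust quasi-likelihood F test. The model had all 9 libraries and group as its only term. Benjamini-Hochberg adjustment ran over all tested genes, with calls at an adjusted p under 0.05. The SE was taken as the size of the log2 fold change over the root of F. The common biological coefficient of variation was 0.178. Shares among the NCF1 copies were compared by exact permutation tests (scipy 1.17.1), with Clopper-Pearson 95% intervals. Without molecular identifiers reads are not separate molecules, so intervals cover counting error only. The method was tested on simulated data. Alternatives were other scalings and filters, DESeq2 1.42.0, limma-voom (limma 3.58.1), only the groups compared, summed NCF1 copies, and libraries left out.

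All 7 oxidase genes are named. From each of 8 lists, up to 4 called members and the 2 of highest mean are named, and for 5 oxidase genes the 3 nearest patterns among tested genes averaging 5 CPM or more (log2 CPM with a prior count of 2). SPI1, the genes called only by DESeq2 and the CYBA to CYBB ratio were added after their values were seen. The members and lists were chosen with earlier results of these data known. Results for some genes that this rule names are not reported here. Shares called by DESeq2 are of the genes it gave an adjusted p.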

Additional observations from a re-analysis of the deposited data

How the results depend on the processing

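No paired analysis was possible because the labels give no replicate numbers that groups share, and the numbers used here only name libraries in accession order. At lupeol 80 against control, all 7 oxidase genes kept the sign of their difference under every alternative run, while the calls depended on the choices. Oxidase genes called there numbered 4 with no filter on low counts and 4 with DESeq2, against 1 in the fit reported. In both settings the 4 were CYBA and the 3 NCF1 rows, which can share reads. With a library left out, from 0 to 2 oxidase genes were called there. Over all genes, DESeq2 called 6.58% at lupeol 80 against control, 2.96% between the doses and 7.82% for any difference. The fit reported called 1.14%, 0.0455% and 0.233% in the same order. Between the doses the 3 NCF1 rows were called with no filter and also with DESeq2. Oxidase genes called between the doses numbered 1 with only the groups compared and 1 without control B and lupeol 80 replicate 1. They numbered from 0 to 1 with a library left out, against 0. In the test of any difference 4 were called with no filter, 4 with DESeq2, 1 with limma-voom, 2 without control B and lupeol 80 replicate 1, and from 0 to 3 with a library left out, against 0. At lupeol 50 the only setting that called any was that without control B and lupeol 80 replicate 1, with 1 (CYBA), and leaving out a library gave 0 to 0.

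Over all tested genes, calls at lupeol 50 against control were 520 with no filter, 229 with DESeq2, 1 with only the groups compared and 913 without control B and lupeol 80 replicate 1, and 0 to 427 with a library left out (427 without lupeol 50 replicate 1), against 0. At lupeol 80 they were 861 with no filter, 124 with a mean of at least 5 CPM, 910 with DESeq2, 78 with only the groups compared, 860 without those 2 libraries and 0 to 386 with a library left out (0 without control 1), against 201. Between the doses they were 14 with no scaling, 659 with no filter, 5 with at least 5 CPM, 440 with DESeq2, 25 without those 2 libraries and 1 to 189 with a library left out, against 8. For any difference they were 27 with RLE factors, 1423 with no filter, 1 with at least 5 CPM, 1107 with DESeq2, 924 without those 2 libraries and 1 to 654 with a library left out, against 41. The settings did not test the same genes, so these totals are not shares. The fit reported tested 17568 genes and the fit with no filter 33754. DESeq2 gave an adjusted p to between 13821 and 14843.

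The summed NCF1 copies passed the threshold with no filter (-0.83 at lupeol 80 against control and -0.84 between the doses) and with DESeq2 (-0.83 and -0.85), and ranged from -0.99 to -0.55 and from -1.01 to -0.69 with a library left out. At lupeol 50 the sum lay near 0, from -0.13 to 0.29 with a library left out, and changed sign with no scaling (-0.0023) and with at least 5 CPM (-0.00068). Other differences near 0 also changed sign. At lupeol 50 NCF1 was -0.0058 with no scaling and -0.0056 with at least 5 CPM, and ran from -0.13 to 0.27 with a library left out. NCF1C ran from -0.067 to 0.42 and RAC2 from -0.093 to 0.054 with a library left out, and RAC2 was 0.039 without control B and lupeol 80 replicate 1. Between the doses CYBB ran from -0.023 to 0.28 and NCF4 from -0.16 to 0.061 with a library left out, and without those 2 libraries they were -0.024 and 0.0058. The NCF1 share at lupeol 50 differed from control by -1.60 percentage points when NCF1B was left out, against -0.24. With a library left out, that share difference ran from -0.93 to 0.35, and at lupeol 80 from 0.51 to 2.45 against control and from 0.75 to 2.69 between the doses. The NCF1B share ran from -2.73 to -1.67, -2.94 to -1.87 and -0.81 to 0.20 in the same order, and the NCF1C share from 1.48 to 3.35, -0.38 to 2.00 and -2.69 to -0.39. The cause of these changes was not tested.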
